A study of Homo sapiens with 19 samples.

Results

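The genes SELPLG, TMEM119, CRABP2, HSPG2 and PRELP were examined because strong binding peaks of the orphan nuclear receptor ERRα appeared near them when breast cancer cells received a growth factor. They were selected on the peak scores under EGF and HRG in SKBr3 and under HRG in BT-474, so those values are a description of the choice and carry no test. Every peak inside a gene body or within 60 kb of one of its annotated transcription starts was taken, and peaks that overlapped between conditions were joined into sites. SELPLG and TMEM119 are neighbours and share a window, so the 5 genes gave 4 loci. These held 153 of 264623 peaks and 44 of 90452 sites, with 6 sites at SELPLG and TMEM119, 12 at CRABP2, 18 at HSPG2 and 8 at PRELP.

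ERRα was immunoprecipitated from HER2-positive human breast cancer lines and the bound DNA was sequenced (ChIP-seq), giving 8 peak lists from 13 ChIP and 6 input libraries. SKBr3 and BT-474 cells were starved of serum for 24 h and then given EGF or HRG (heregulin) for 90 min, at a concentration the labels give as 100 µM, or the PBS vehicle. pSKBr3 are the parental cells of the resistance experiment, left untreated, and LRSKBr3 are SKBr3 cells made resistant to lapatinib, an inhibitor of the EGFR and HER2 kinases, and kept in 2 µM of the drug. Each SKBr3, pSKBr3 and LRSKBr3 list came from 2 pooled ChIP libraries, whereas each BT-474 list came from 1 ChIP library and all used the vehicle input. A condition therefore has a single list, with no spread between replicates and no test of a difference. EGF and HRG were set against the same vehicle list, LRSKBr3 differed from pSKBr3 both in the cells and in the drug, and the labels give no serum starvation for the pSKBr3 and LRSKBr3 cells.

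ERRα binds as a monomer or dimer to the oestrogen-related receptor response element (ERRE), whose core letters are TCAAGGTCA, and is best known as a regulator of mitochondrial and energy metabolism genes. EGF activates EGFR and HRG activates HER3, both of which pair with HER2. Signals from these receptors induce the FOS and JUN proteins, which form the AP-1 factor and bind TGACTCA or TGAGTCA. SELPLG encodes PSGL-1, the ligand of the selectins on leukocytes, and TMEM119 a membrane protein known from microglia and bone-forming cells. CRABP2 carries retinoic acid to its nuclear receptor, HSPG2 encodes perlecan, a heparan sulphate proteoglycan of basement membranes, and PRELP a small leucine-rich proteoglycan that anchors such membranes to connective tissue.

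The sequences below come from the strongest gained peaks at SELPLG and TMEM119, CRABP2 and PRELP. All are the plus strand of hg19, read from the GRCh37 genome, and capitals mark an AP-1 word. The first holds both AP-1 words of the site between SELPLG and TMEM119, and the CRABP2 and PRELP sequences are the central bases of their peaks, which hold none.
SELPLG/TMEM119 site 5, chr12:109005869-109006009: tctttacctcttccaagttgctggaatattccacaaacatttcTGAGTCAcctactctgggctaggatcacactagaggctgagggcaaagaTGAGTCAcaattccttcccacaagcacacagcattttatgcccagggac
CRABP2 site 7, chr1:156661884-156662084: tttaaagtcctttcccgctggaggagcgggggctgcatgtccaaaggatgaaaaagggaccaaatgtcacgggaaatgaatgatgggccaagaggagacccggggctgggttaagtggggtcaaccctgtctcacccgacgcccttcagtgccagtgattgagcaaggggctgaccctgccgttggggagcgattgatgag
PRELP site 1, chr1:203391795-203391995: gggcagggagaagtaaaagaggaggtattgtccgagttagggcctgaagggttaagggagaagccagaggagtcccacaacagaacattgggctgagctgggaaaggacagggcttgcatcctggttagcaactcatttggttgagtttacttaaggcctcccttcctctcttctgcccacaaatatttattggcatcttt

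The MACS score of a peak rises as its P value falls, with 50 at the cutoff of 1e-05. Since the depth of the libraries is unknown, a score is given here as its percentile within its own list, where 100 would be the strongest peak. Many peaks tie at a score of 3100: 786 peaks of the SKBr3 EGF list, 966 of the SKBr3 HRG list and 1156 of the BT-474 HRG list share that value, some peaks of each list score higher, and a tie receives the middle percentile. A site was called gained when it held a peak in the treated or resistant list and none in the control list. A site that was not called fell short of that cutoff and may still be bound.

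In SKBr3 cells most gained sites of the 4 loci appeared on HRG, and the majority of these lay at CRABP2 and HSPG2. On EGF, 9 of the 44 sites were gained and 5 were lost, against 11.3% of all sites gained and 10.8% lost. On HRG, 23 were gained and 3 lost, against 20.3% of all sites gained and 14.6% lost. These counts were partly fixed by the choice of the genes. In BT-474 cells, which served the choice through HRG only, EGF gained 1 site and lost 2, with 6.85% of all sites gained and 12.9% lost, and HRG gained 9 and lost 1, with 16.3% of all sites gained and 6.58% lost. The BT-474 HRG list held 41271 peaks and the vehicle list 32259, and with each limited to its 32259 strongest peaks HRG gained 5 sites, against 9.56% of all sites. Counted by gene, all 5 genes had a gained site on EGF in SKBr3, as had 46.1% of the 20163 protein-coding genes given the same windows. On HRG these were 4 of 5 genes, against 67.5% of all. In BT-474 they were 1 of 5 on EGF, against 20.1% of all genes, and 4 of 5 on HRG, against 46.2% of all.

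**Figure D1:**
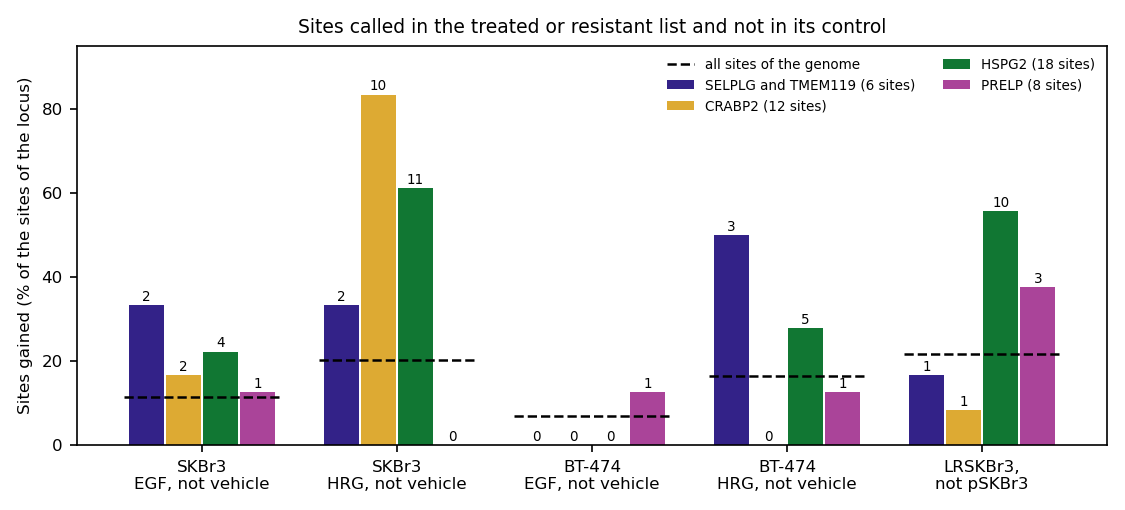
Sites gained in each comparison as a percentage of the sites of each locus (vertical axis), with the number of gained sites above each bar and the share of all 90452 sites as a dashed line. CRABP2 stands highest on HRG in SKBr3 with 10 of 12 sites, and HSPG2 is highest in LRSKBr3 with 10 of 18.

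Between SELPLG and TMEM119 a site without a call on vehicle had high percentiles on both growth factors in SKBr3. Site 5, at chr12:109004891-109006745, lay outside any gene, 21894 bp downstream of the most upstream SELPLG start, 12330 bp from the nearest annotated one, and 13680 bp upstream of that of TMEM119. It was absent from the SKBr3 vehicle list and reached percentile 98.6 on EGF, with the tied score of 3100. Among the 10236 sites gained on EGF, 2 had that score. On HRG it reached percentile 95.1 with a score of 1944, the 41st of 18318 gained sites. In BT-474 it was called on HRG alone, at percentile 63.6 with a score of 229, and neither on vehicle nor on EGF. Neither pSKBr3 nor LRSKBr3 held it. The same site was thus gained on HRG in both lines, at a high percentile in SKBr3 and a middling one in BT-474.

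Its neighbour, site 4, at chr12:109003217-109004491, was called in another set of cells. It was also absent from the SKBr3 vehicle list, and reached percentile 41.0 on EGF and 63.2 on HRG. It was not called in any BT-474 list. In contrast to site 5 it was called in pSKBr3, at percentile 14.6, and in LRSKBr3, at percentile 60.5. The remaining 4 sites lay at other genes. Site 2 was at the shared promoter region of ISCU, a scaffold for iron-sulphur cluster assembly, and SART3, an RNA-binding protein, and was called in all 3 BT-474 lists and in pSKBr3 and LRSKBr3, but in none of the 3 SKBr3 lists. Site 3, in an ISCU intron, was called in 7 lists and was the only site of the locus gained in LRSKBr3, at percentile 61.8. Sites 1 and 6 were called in BT-474 on HRG alone, at percentiles 9.62 and 5.82. No site lay within 1 kb of a SELPLG or TMEM119 start.

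**Figure D2:**
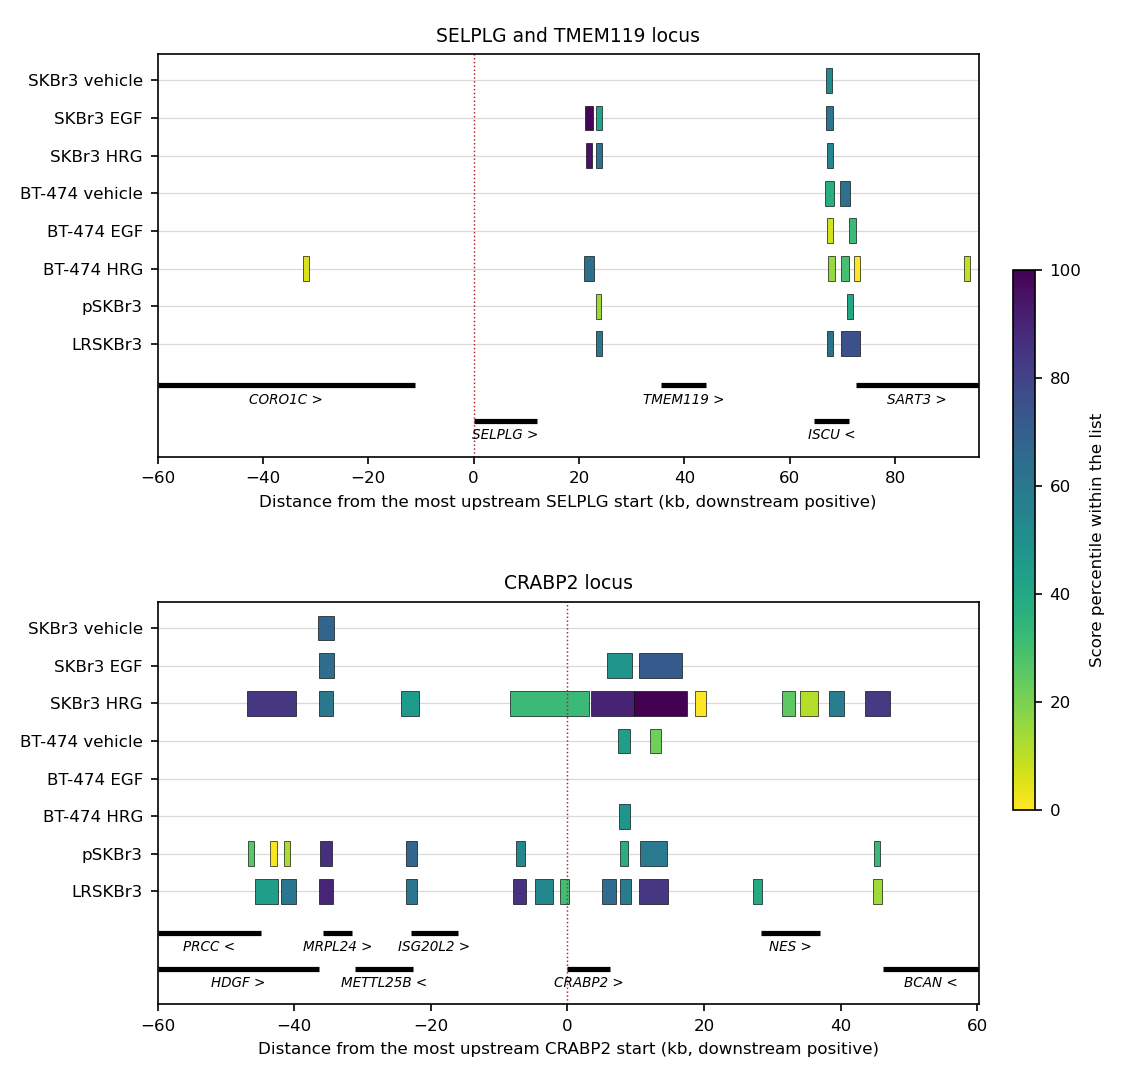
Peaks of the 8 lists (rows) at the SELPLG and TMEM119 locus and the CRABP2 locus, against the distance in kb from the most upstream SELPLG or CRABP2 start (dotted line), with coding genes below. Each box is 1 peak at its width, coloured by its score percentile. The pair of sites between SELPLG and TMEM119 is missing on SKBr3 vehicle, and on HRG in SKBr3 wide peaks adjoin one another across CRABP2 and its downstream flank.

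CRABP2 was the locus most widely occupied on HRG in SKBr3, though not in BT-474. In SKBr3 cells 1 of its 12 sites was called on vehicle, 3 on EGF and 11 on HRG, against 34.1%, 34.5% and 39.8% of all sites. The bases inside peaks rose from 2.28 kb on vehicle to 12.1 kb on EGF and 49.0 kb on HRG. The last value is 40.7% of the 120.2 kb window, where the HRG list covered 2.19% of the genome. The 10 sites gained on HRG gave 8.32 per 100 kb of window, a density that 0.541% of all protein-coding genes reached or passed. HRG peaks served the choice of the genes, so this rank was partly fixed by it. In BT-474 the picture differed: 2 sites were called on vehicle, 0 on EGF and 1 on HRG, against 34.9%, 28.9% and 44.6% of all sites. No site was gained there.

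The strongest of these, site 7 at chr1:156658160-156665807, was centred 13624 bp downstream of the most upstream CRABP2 start. It was not called on vehicle in SKBr3, reached percentile 72.2 on EGF with a score of 330, and percentile 99.9 on HRG with a score of 3191. The HRG score was the highest of all 18318 sites gained on HRG. The EGF peak was 6234 bp wide and the HRG peak 7648 bp, above 98.8% and 99.2% of the widths in their lists, where the median peak of the HRG list was 1401 bp. The site was called in pSKBr3 at percentile 59.0 and in LRSKBr3 at percentile 84.0. In BT-474 it was called on vehicle alone, at percentile 21.7.

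Sites 8 and 9 followed directly on site 7 towards and across the gene. Site 8 was called on EGF at percentile 48.0 and on HRG at percentile 90.5, and also in BT-474 on vehicle and HRG, at percentiles 44.3 and 47.6. Its percentile was 37.4 in pSKBr3, and 65.2 for the stronger of its 2 peaks in LRSKBr3. Site 9 was the only site within 1 kb of the CRABP2 start. In SKBr3 it was a single HRG peak of 11465 bp at percentile 32.1, a wide and weak call. LRSKBr3 resolved the same stretch into 3 peaks, at percentiles 30.8, 53.2 and 85.7, the first of which was centred 445 bp upstream of the start. pSKBr3 held 1 peak there, at percentile 53.2, which was centred 6870 bp upstream of the start and did not reach the promoter.

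**Figure D3:**
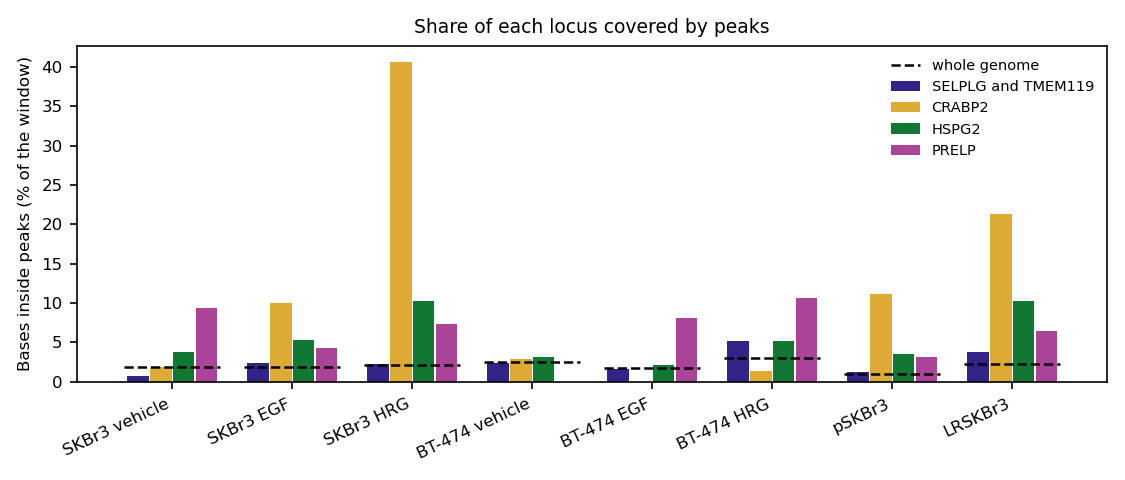
Percentage of the bases of each window that lay inside peaks (vertical axis) in each of the 8 lists, with the percentage of the whole genome as a dashed line. CRABP2 reaches 40.7% on HRG in SKBr3, against 1.9% on vehicle, and 21.3% in LRSKBr3, against 11.2% in pSKBr3, and no peak lies in its window on EGF in BT-474.

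Several other sites of the CRABP2 locus lay at the starts of neighbouring genes. Site 12 covered the shared start region of HDGF, a growth factor, and PRCC, and was gained on HRG at percentile 84.1 with a width of 7112 bp. Site 10, at the ISG20L2 and METTL25B promoters, was gained on HRG at percentile 45.7. Site 11, at the promoter of MRPL24, a mitochondrial ribosomal protein, was the only one called on SKBr3 vehicle. It stood at percentile 67.9 on vehicle, 65.1 on EGF and 59.9 on HRG in SKBr3, and at 86.1 in pSKBr3 and 89.7 in LRSKBr3, with no call in BT-474. Site 1 was centred outside any gene, 45410 bp downstream of the CRABP2 start, and its edge reached into the gene BCAN. It was gained on HRG at percentile 82.6, was called in pSKBr3 at 32.7 and in LRSKBr3 at 14.4, and held an AP-1 word 84 bp from its centre. Sites 2, 3, 4 and 6 were called on HRG in SKBr3 alone, at percentiles from 0.413 to 58.0, and the centres of sites 3 and 4 lay in coding exons of NES, the intermediate filament gene nestin. Site 5 near the NES promoter was the only site of the locus gained in LRSKBr3, at percentile 39.4.

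The HSPG2 window gained the most sites in SKBr3, in LRSKBr3 and on HRG in BT-474. The gene spans 115067 bp, has 15 annotated starts and a window of 233 kb, which is longer than that of 87.8% of protein-coding genes. In SKBr3 cells 6 of its 18 sites were called on vehicle, 8 on EGF and 16 on HRG, against 34.1%, 34.5% and 39.8% of all sites. On EGF 4 were gained and on HRG 11. In BT-474 3 were called on vehicle, the same number on EGF, and 8 on HRG, against 34.9%, 28.9% and 44.6% of all sites. Of the 8 on HRG, 5 were gained. Centred inside the gene were 7 of the 11 sites gained on HRG in SKBr3 and 2 of the 5 in BT-474. The others lay downstream of the gene. Of all protein-coding genes, 0.932% had at least 11 gained sites on HRG in SKBr3 and 1.98% at least 5 on HRG in BT-474. Per 100 kb the SKBr3 HRG value was 4.72, reached or passed by 6.37% of genes. These ranks too were partly fixed by the choice of the genes on HRG peaks.

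The strongest gained site was intronic. Site 9, at chr1:22187929-22189545, lay 75066 bp downstream of the most upstream start. It was not called on SKBr3 vehicle, reached percentile 90.9 on EGF with a score of 1141 and percentile 98.6 on HRG with the tied score of 3100. On HRG 11 gained sites had that score or more, and on EGF it was the 72nd of 10236. It was not called in any BT-474 list. It was called in pSKBr3 at percentile 58.2 and in LRSKBr3 at percentile 77.1. Site 8, at chr1:22181843-22183372 in another intron and within 1 kb of an internal start, showed the same order in SKBr3 without counting as gained there, since vehicle had a weak peak. Its percentile was 11.3 on vehicle, 78.3 on EGF and 94.3 on HRG, and 49.7 in pSKBr3, 77.8 in LRSKBr3 and 14.6 on HRG in BT-474, where it was not called on vehicle and so counted as gained.

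At the upstream promoter of HSPG2 a peak was called on both growth factors in SKBr3 and not on vehicle. Site 17, at chr1:22261599-22263477, was absent on vehicle, weak on EGF at percentile 18.7, and stood at percentile 63.5 on HRG. It was not called in BT-474 or pSKBr3, and reached percentile 37.2 in LRSKBr3. Site 11, at an internal start, was already called on vehicle at percentile 76.3, with 51.0 on EGF, 86.7 on HRG, 78.4 in pSKBr3 and 84.4 in LRSKBr3, and was not called in BT-474. Site 5, at chr1:22126873-22128638 downstream of the gene, was gained on EGF at percentile 67.4, on HRG at percentile 82.8 and on HRG in BT-474 at percentile 27. In BT-474 the gained site with the highest percentile was the intronic site 13, at 46.4 on HRG, which was also gained on HRG in SKBr3 at 41.6 and had the highest percentile of the sites gained in LRSKBr3, at 65.2.

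The locus also held both sites that were called in all 8 lists. Site 6, at chr1:22129343-22131685, stood at percentile 89.8 on vehicle in SKBr3, 94.8 on EGF and 98.6 on HRG. In BT-474 the same conditions gave 77.5, 79.1 and 82.0, and it stood at 92.1 in both pSKBr3 and LRSKBr3. Site 18, 19824 bp upstream of the gene, had 81.0, 86.8 and 93.5 in SKBr3, 66.5, 58.4 and 72.4 in BT-474, and 83.6 and 83.3 in pSKBr3 and LRSKBr3. In each line the HRG percentile was the highest of the 3 treatments at both sites. Site 2 at the promoter of USP48, a deubiquitinating enzyme, was called in every list except SKBr3 EGF.

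**Figure D4:**
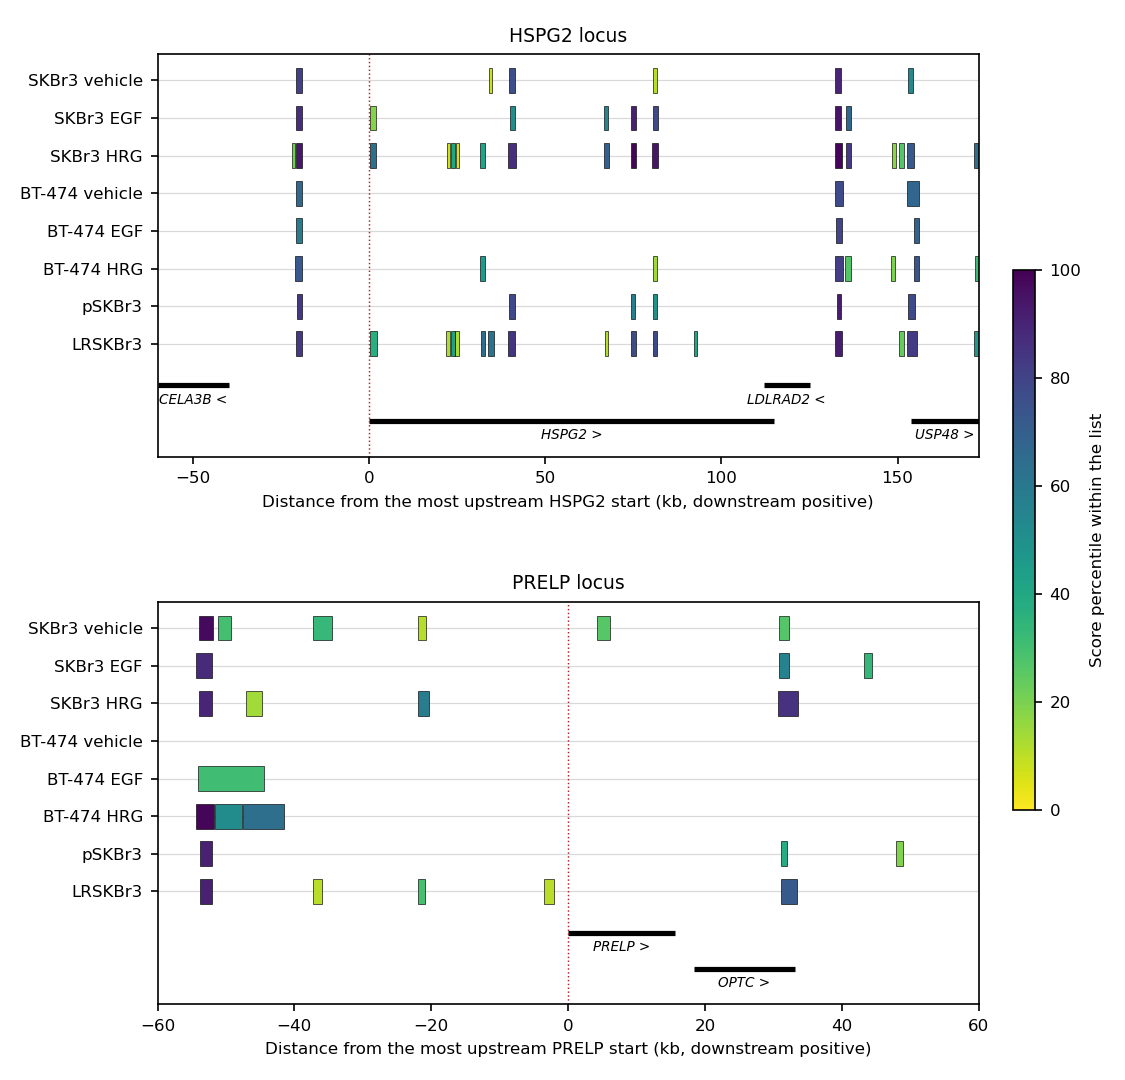
Peaks of the 8 lists (rows) at the HSPG2 and PRELP loci, against the distance in kb from the most upstream start (dotted line), with coding genes below and colour giving the score percentile. Sites 6 and 18 of HSPG2 run through all rows, most other HSPG2 sites are shared by SKBr3 HRG and LRSKBr3, and the PRELP window is empty on BT-474 vehicle.

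PRELP behaved differently, since its strong gain was seen in BT-474. None of its 8 sites was called on BT-474 vehicle, where 34.9% of all sites were called. Site 1, at chr1:203390544-203403470 and 53039 bp upstream of the start, was called on EGF as a single peak 9666 bp wide at percentile 30.6. On HRG it was resolved into 3 peaks, at percentiles 98.5, 51.8 and 63.7. The first had the tied score of 3100, which 7 of the 14746 sites gained on HRG reached or passed. In SKBr3 the same site was strongest on vehicle, at percentile 97.4 with a score of 3074, and stood at 88.0 on EGF and 89.6 on HRG. It was at 90.8 in pSKBr3 and 91.0 in LRSKBr3. The gain was therefore confined to the BT-474 lists, and BT-474 vehicle was the only one of the 8 lists that lacked the site.

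Other PRELP sites were fewer and weaker. In SKBr3 5 of the 8 sites were called on vehicle and 3 each on EGF and HRG, against 34.1%, 34.5% and 39.8% of all sites. On EGF 3 sites were lost and 1 gained, against 10.8% and 11.3% of all sites. On HRG 2 were lost, against 14.6% of all. Site 5, in the PRELP intron, was called on SKBr3 vehicle alone, at percentile 26.5, and site 7, further downstream, on EGF alone, at percentile 33.3. Site 6, in an intron of OPTC, which encodes the related proteoglycan opticin, was called on vehicle at percentile 26.8, on EGF at 56.1 and on HRG at 85.8, with 38.6 in pSKBr3 and 72.4 in LRSKBr3. It was not called in BT-474. Site 3, 21170 bp upstream of the start, had the highest percentile of the 3 sites gained in LRSKBr3, at 29.6, and was called in SKBr3 on vehicle at 11.0 and on HRG at 58.6. No site lay within 1 kb of the PRELP start.

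**Figure D5:**
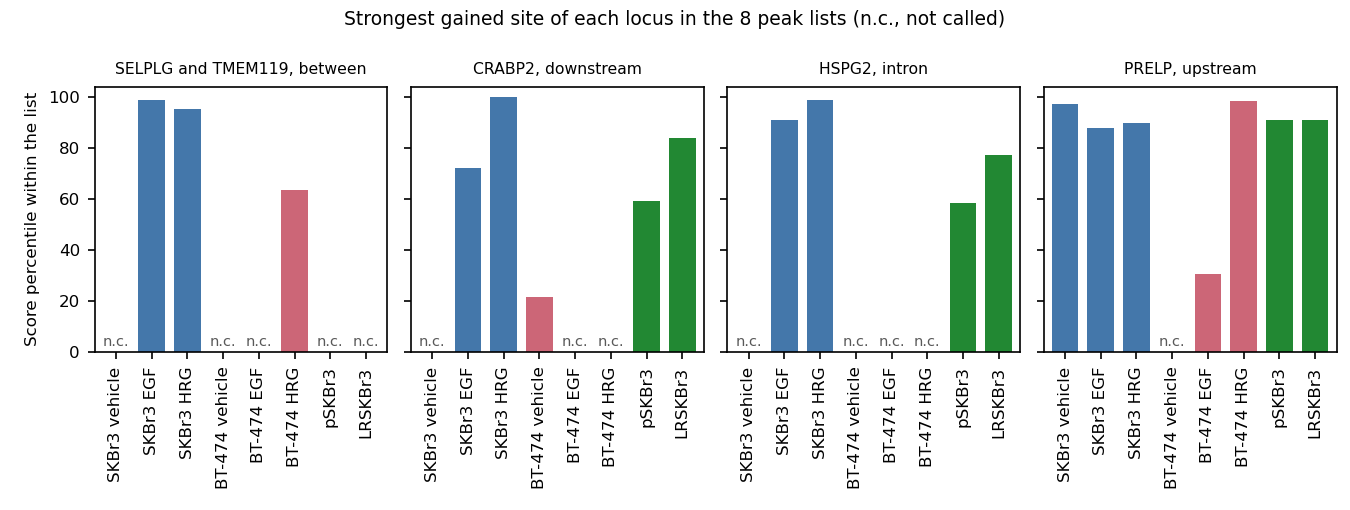
Score percentile (vertical axis) of the strongest gained site of each locus in the 8 lists, with n.c. for a list that did not call it and colours separating the SKBr3, the BT-474 and the pSKBr3 and LRSKBr3 lists. The site of SELPLG and TMEM119 is called in 3 lists, that of CRABP2 in 5, that of HSPG2 in 4 and that of PRELP in 7.

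The lapatinib-resistant cells were not used to choose the genes. In LRSKBr3 15 of the 44 sites were gained over pSKBr3 and 1 was lost, against 21.7% of all sites gained and 3.04% lost. All 5 genes had a site gained in LRSKBr3, as had 69.3% of protein-coding genes. The loci differed: 10 of the gained sites lay at HSPG2, 3 at PRELP, and 1 each at CRABP2 and at SELPLG and TMEM119. Comparing the LRSKBr3 and pSKBr3 peaks directly, by an overlap of 1 bp, gave 18 gained instead of 15. At HSPG2 8 of the 10 were centred inside the gene, all in introns. At least 10 gained sites were found at 0.6% of protein-coding genes, and the density of 4.29 per 100 kb was reached or passed by 2.38%. The percentiles of the 10 sites ran from 11.7 to 65.2. The LRSKBr3 list was longer, with 39777 peaks against 22539 in pSKBr3. With each list limited to its 22539 strongest peaks, 4 sites were gained in all, 3 at HSPG2 and 1 at SELPLG and TMEM119, and the share of all sites fell to 7.2%.

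Among the 44 sites, 24 were gained in SKBr3 on at least 1 growth factor, and their calls in pSKBr3 and LRSKBr3 split by locus. LRSKBr3 called 16 of the 24, against 36.7% of all sites gained on a growth factor. pSKBr3 called 8 of them, against 16.2% of all. At CRABP2 the 6 gained sites that LRSKBr3 called were all called in pSKBr3 too. This holds for sites joined over all lists. At sites 8 and 9 some LRSKBr3 peaks overlapped no pSKBr3 peak, among them the one centred 445 bp upstream of the CRABP2 start. At HSPG2 LRSKBr3 called 9 of the 11, and pSKBr3 called only site 9. At SELPLG and TMEM119 both called site 4 and neither called site 5. BT-474 called 2 of the 24 on vehicle, 0 on EGF and 6 on HRG, where 15.7%, 10.6% and 20.5% of all sites gained in SKBr3 were called.

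The words of the 2 factors were searched on both strands within 100 bp of the centre of each site's strongest peak. The ERRE (TCAAGGTCA) was found at 2 of the 44 sites, against 4.9% of all sites, and an AP-1 word (TGACTCA or TGAGTCA) at 4, against 7.29%. All 4 sites with an AP-1 word within 100 bp were among the 24 gained in SKBr3, where the share over all gained sites was 12.7%. Within 250 bp 13 sites held one, against 14.9% of all sites, and 8 of these were among the 24, against 22.9% of all gained sites. Searching whole sites gave the ERRE at 4 of the 44 and AP-1 words at 22, against 12.9% and 36.8% of all sites, and at 14 of the 24 gained in SKBr3, against 42.2% of all gained sites. A match is a description of these letters only, and many of these sites are wide.

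At the site between SELPLG and TMEM119 the AP-1 words lay 139 and 188 bp from the peak centre and 49 bp apart, and the site held no ERRE. In HSPG2 site 5 the AP-1 words nearest the centre lay 35 and 6 bp from the centre and 29 bp apart. CRABP2 site 7 held AP-1 words only away from its centre, the nearer at 428 bp. The strongest peak of PRELP site 1 held neither word, and the only AP-1 word of that site lay 3061 bp away.

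The ERRE was held by 4 sites. These were weak calls in few lists or, at PRELP site 6, lay far from the peak centre: HSPG2 site 16 was called on HRG in SKBr3 at percentile 7.7 and in LRSKBr3 at 12.4, and PRELP site 4 in LRSKBr3 alone at 10.5. The fourth ERRE was at site 6 of SELPLG and TMEM119. Capitals mark the AP-1 words of HSPG2 site 5 and the ERRE, on either strand, of the others.
HSPG2 site 5, chr1:22127714-22127854: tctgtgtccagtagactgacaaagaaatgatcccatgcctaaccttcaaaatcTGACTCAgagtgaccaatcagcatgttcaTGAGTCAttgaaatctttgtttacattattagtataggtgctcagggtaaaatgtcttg
HSPG2 site 16, chr1:22241203-22241343: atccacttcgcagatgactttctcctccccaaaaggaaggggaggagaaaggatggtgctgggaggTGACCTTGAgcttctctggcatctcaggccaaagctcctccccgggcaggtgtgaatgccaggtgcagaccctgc
PRELP site 4, chr1:203442040-203442180: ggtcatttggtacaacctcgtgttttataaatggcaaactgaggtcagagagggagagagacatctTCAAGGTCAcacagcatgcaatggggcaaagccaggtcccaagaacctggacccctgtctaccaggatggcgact
PRELP site 6, chr1:203477760-203477786: tcctctctcTCAAGGTCAtctcttgga

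Related genes were counted in the same way, by a list drawn from the families of the members. In SKBr3 7 of 18 such genes had a gained site on EGF and 8 on HRG, where 46.1% and 67.5% of all protein-coding genes had one. In BT-474 3 did on EGF and 11 on HRG, against 20.1% and 46.2% of all, and in LRSKBr3 10 did, against 69.3%. The share of the related genes was above that of all genes on HRG in BT-474 and below it in the other 4 comparisons. Of the other 3 basement membrane proteoglycans, AGRN (agrin) had 9 gained sites on HRG in SKBr3 and 5 in LRSKBr3, COL18A1 had 10 and 8, and COL15A1 had 0 and 8, where the median gene had 1 in either comparison. On EGF in SKBr3 and on HRG in BT-474 1 of these 3 genes had a gained site. Among 9 small leucine-rich proteoglycans, 1 had a gained site on HRG in SKBr3 and 6 on HRG in BT-474, to be read against the same 67.5% and 46.2%. These genes do not count separately: the gained sites on HRG in BT-474 were 4 in all, since DCN, LUM and KERA shared theirs, and OPTC lies within the PRELP window and shares its sites. CRABP1, the paralogue of CRABP2, had 3 sites gained on HRG and 3 in LRSKBr3.

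The limit of 60 kb left strong peaks just outside. The nearest peak beyond the CRABP2 window was on SKBr3 vehicle, 44 bp outside, at percentile 67.0, and on the other side an HRG peak at percentile 98.6 lay 4171 bp outside. A BT-474 HRG peak at percentile 98.5 lay 9477 bp beyond the SELPLG and TMEM119 window, and another at percentile 63.6 lay 3993 bp beyond that of PRELP. Just inside, the outermost PRELP peak was that of site 1 on EGF in SKBr3, 5610 bp from the edge at percentile 88.0, and an SKBr3 HRG peak at percentile 63.8 crossed the edge of the HSPG2 window. Assignment of a site to a gene rests on distance, and expression of these genes was not analysed here.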

How the data were processed

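ERRα was measured by ChIP-seq in SKBr3, BT-474, pSKBr3 and LRSKBr3 cells (19 libraries). Per the methods and labels, the authors aligned reads to hg19 with BWA 0.5.9, handled them with SAMtools 0.1.18 and called peaks with MACS against input at a P value cutoff of 1e-05, pooling replicate ChIP libraries. Each deposited list gives peak positions and a score, a scaled negative logarithm of the P value that is 50 at the cutoff, with no tag counts, so the depth is unknown and intervals could not be given.

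Scores were converted to percentiles within their list (ties share the middle rank). Peaks sharing at least 1 bp were merged into sites with pandas 2.3.3 (Python 3.11.15). Gene models came from GENCODE 44 lifted to GRCh37, and no peak ran past a chromosome end of that genome. The merging was tested on simulated data. With 1 list per condition no test was made. The members and lists were chosen with earlier results of these data known. For each locus and comparison the gained site with the highest percentile was named, with any site within 1 kb of a member start and those in all 8 lists. A further 11 alternatives were tried for the counts of gained sites. The sequence of HSPG2 site 9 is not reported here.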

Additional observations from a re-analysis of the deposited data

Results flagged for a closer look

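CRABP2 site 7 was called under opposite conditions in the 2 lines. In SKBr3 it was gained on EGF at percentile 72.2 and on HRG at percentile 99.9, whereas in BT-474 it was called on vehicle alone, at percentile 21.7, and on neither growth factor. With 1 list per condition this difference was not tested. The BT-474 call was lost at a P value cutoff of 1e-08, and both SKBr3 growth factor calls were lost without peaks wider than 5000 bp, a width that both exceed.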

How the results depend on the processing

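Of 61 recomputed counts, 41 stayed within 1.5 times the reported value, among them all for EGF in SKBr3. For HRG in SKBr3 (23 gained sites) the count was 15 when the gained peak had to reach a P value of 1e-10 and 13 with a window of 20 kb. For EGF in BT-474 (1 site) it was 0 at a cutoff of 1e-08, at 1e-10, for a gained peak at 1e-10, with a window of 20 kb and without peaks wider than 5000 bp, the last chosen after seeing the data, and 3 when shared peaks had to overlap by 50% or have centres within 500 bp. For HRG in BT-474 (9 sites) it was 5 at 1e-10, 3 for a gained peak at 1e-10, 5 with lists of equal size and 3 with 20 kb. For LRSKBr3 (15 sites) it was 8 for a gained peak at 1e-10, 4 with lists of equal size and 9 with 20 kb. The ERRE count (2) became 4 over whole sites and 7 for the word AAGGTCA, which 18.5% of all sites held within 100 bp. The AP-1 count (4) became 22 over whole sites and 13 within 250 bp. The cause of each change was not tested, except that a smaller window holds fewer sites and a wider search more letters.

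CRABP2 site 7 lost both SKBr3 growth factor calls without wide peaks, since both peaks exceed that width, and PRELP site 1 lost its BT-474 EGF call at 1e-08 and, for the same reason, without wide peaks. No paired analysis was possible because each condition has a single list and the results come from no test. Unknown depth means that an absent call cannot be read as absent binding.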
